A study of Rattus norvegicus with 12 samples.

Results

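MHC and antigen presentation genes were examined in left ventricle of rats with a myocardial infarction (MI), with and without urolithin A (UA), a gut metabolite of ellagitannins studied as an inducer of mitophagy. The genes were taken by name: every gene whose symbol starts with RT1-, the rat MHC, together with Cd74, B2m, Tap1, Tap2, Tapbp, Psmb8, Psmb9, Psmb10, Ciita, Nlrc5 and Erap1. This gave 41 of the 30560 genes counted, which are 21 class I heavy chain genes, 9 class II chain genes and 11 partners or regulators. RT1-A1, RT1-A2 and RT1-A3, of the classical class I region, were not among these 41 and were not analysed here.

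All animals were male Wistar rats, an outbred stock, and underwent surgery at 7 weeks of age. Sham rats had the chest opened without ligation and then received vehicle, MI rats had a permanent ligation of the left anterior descending coronary artery and received vehicle, and MI + UA rats had the same ligation and received UA by daily oral gavage for 8 weeks. Each group held 4 rats, 1 library per rat. RNA came from formalin-fixed, paraffin-embedded sections of the middle region of the ventricle, so each library mixed cardiomyocytes with every other cell of the wall, and fewer cells of a type and less RNA per cell cannot be told apart. Rats with a small infarct were left out by the study at the first echocardiography, and 1 further MI + UA library that the study set aside was not analysed here. The gavaged UA was given as 50 mg/ml, while sources differed on the dose by body weight and on when dosing began, and this number enters no fit. The sources also differed on rat 66, whose label gives UA but which a supplementary list places among vehicle rats with MI, so the fits and the comparison of ranges were repeated with it in MI, and changes in calls, in separated ranges and in the sign of a class median are given beside the counts.

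Reads counted on genes ranged from 6228706 to 19031695 per rat, of which 50.2% to 58.6% fell on the 13 mitochondrially encoded genes. Genes received 46.9% to 48.3% of all counted reads in Sham, 43.3% to 44.8% in MI and 42.9% to 47.2% in MI + UA rats. Cardiomyocyte markers were abundant in every heart, at a summed level of 16216 to 19677 CPM in Sham, 11598 to 12462 in MI and 11926 to 14462 in MI + UA rats. Levels are given in CPM, the count scaled to the library size after TMM normalisation. These values are not divided by transcript length, so levels are compared between rats and not between genes.

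MHC class I molecules sit on most nucleated cells, where a heavy chain pairs with beta-2-microglobulin (B2m) and displays peptides cut by the proteasome, carried into the endoplasmic reticulum by Tap1 and Tap2, loaded with help from Tapbp and trimmed by Erap1. MHC class II molecules are alpha and beta pairs made mainly by macrophages, dendritic cells and B cells. They travel with the invariant chain Cd74, which cathepsins then remove, and the DM pair exchanges its last fragment for a peptide. The coactivator Ciita switches on class II genes and Cd74 through the X and Y boxes of their promoters, and Nlrc5 is its counterpart for class I. In the heart most class II positive cells are macrophages and dendritic cells.

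The promoters of the RT1 genes that the results below turn on are shown first, with the short motifs that they hold. RefSeq promoters in build GRCr8 could be matched by symbol to 33 of the 40 member symbols. This build is not the one of the count table, which is mRatBN7.2. Each run below covers the 160 bases before the first base of the gene, 5′ to 3′ on the strand of the gene. Capitals mark matches on either strand to 4 short motifs, which are ATTGG (the core of the Y box), GNAACNG (the core of the X1 box), GAANNGAAA (the core of the interferon response element) and GGGANNNCC (an NF-kB type site).
RT1-Da, class II alpha chain, chr20:4515255-4515414, + strand: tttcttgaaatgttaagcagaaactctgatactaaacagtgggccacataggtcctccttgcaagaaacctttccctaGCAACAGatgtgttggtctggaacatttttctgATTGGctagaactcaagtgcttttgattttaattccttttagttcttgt
RT1-Ba, class II alpha chain, chr20:4576897-4577056, + strand: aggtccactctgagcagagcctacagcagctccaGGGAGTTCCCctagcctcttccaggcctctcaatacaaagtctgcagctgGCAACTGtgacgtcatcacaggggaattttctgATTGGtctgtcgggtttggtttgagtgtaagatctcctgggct
RT1-Db1, class II beta chain, chr20:4560163-4560322, - strand: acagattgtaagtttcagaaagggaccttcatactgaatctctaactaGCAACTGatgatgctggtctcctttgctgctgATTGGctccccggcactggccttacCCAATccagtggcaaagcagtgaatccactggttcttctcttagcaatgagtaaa
RT1-Bb, class II beta chain, chr20:4604119-4604278, - strand: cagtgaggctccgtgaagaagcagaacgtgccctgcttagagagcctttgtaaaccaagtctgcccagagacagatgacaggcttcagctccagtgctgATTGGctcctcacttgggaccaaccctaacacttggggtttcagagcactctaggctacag
RT1-CE16, class I heavy chain, chr20:3265444-3265603, - strand: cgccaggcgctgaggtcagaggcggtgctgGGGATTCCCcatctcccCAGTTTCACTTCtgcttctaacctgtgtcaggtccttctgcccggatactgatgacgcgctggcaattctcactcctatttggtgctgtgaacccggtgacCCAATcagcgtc
RT1-T24-4, class I heavy chain, chr20:2689173-2689332, + strand: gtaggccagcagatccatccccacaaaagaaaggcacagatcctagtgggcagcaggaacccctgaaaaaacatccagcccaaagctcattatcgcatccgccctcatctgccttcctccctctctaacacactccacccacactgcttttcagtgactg

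In RT1-Da the X1 core began 82 bases and the Y core 49 bases before the gene, a spacing of 33 bases from first base to first base. RT1-Ba had the same spacing of 33 bases, and RT1-Db1 a spacing of 32. A search for this order at a spacing of 30 to 33 bases on the gene strand, chosen after these promoters had been read, found it in 5 of the 8 class II promoters (RT1-Ba, RT1-DOb, RT1-Da, RT1-Db1 and RT1-Db2), in 0 of 17 class I promoters and in 0.102% of all 33469 promoters of 300 bases. RT1-Bb carried a Y core but no X1 core at that spacing. The pair was in 0 of the 8 partner or regulator promoters, Cd74 included. Of the single motifs 3 occurred in both classes of chain, and GAANNGAAA in class I chains but no class II chain. GAANNGAAA was also in 4 of the 8 partner or regulator promoters, among them that of Cd74. ATTGG was in 8 of 8 class II and 10 of 17 class I promoters, GNAACNG in 7 and 9, GGGANNNCC in 2 and 3, and GAANNGAAA in 0 and 5. Each motif alone was also common among all genes: the 300-base windows held ATTGG in 37.5% of all genes, GNAACNG in 42.8%, GGGANNNCC in 18.2% and GAANNGAAA in 8.54%. In RT1-CE16 the interferon core and an X1 core overlapped, which makes 1 run of capitals, and the NF-kB type site lay 20 bases before the interferon core. RT1-CE11 had that pair at the same spacing. The spacing was taken from these promoters after they had been read, and the pair occurred in 0.0179% of all promoters. RT1-T24-4 held none of the 4 motifs in its window. A match describes letters only, and no binding was measured.

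After infarction the median class II chain was higher than in Sham and the median class I chain was not, but no single member passed the test. The class I median had no stable sign when single rats were left out, and a difference between the classes was not tested. In MI vs Sham, 0 of the 36 members with at least 10 counts over all rats were called at an adjusted p under 0.05 (edgeR quasi-likelihood test with Benjamini-Hochberg adjustment over 18182 genes), against 11.4% of all genes tested. The 5 members under the filter were class I genes: RT1-M1-4, RT1-M5 and RT1-M10-1 with 0 counts, RT1-M1-2 with 6 counts and 1 of 2 RT1-S2 genes with 1 count. At an unadjusted p under 0.05 stood 5 members, against 23.9% of all genes. Of these, RT1-Da, RT1-Ba, RT1-DMa and RT1-Db1 of class II were higher in MI and RT1-T24-4 of class I was lower. The median log2 fold change was 0.35 over the 9 class II genes, -0.02 over the 16 class I genes and -0.10 over the 11 partners and regulators, beside 0.03 over all genes. The MI and Sham ranges did not overlap for 2 members, RT1-Da and RT1-DMa, against 15.7% of all genes. With rat 66 in MI, RT1-Da alone was separated, against 12% of all genes. It was then also the only member called, a smaller share of the members than the share of all genes called in that fit.

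**Figure D1:**
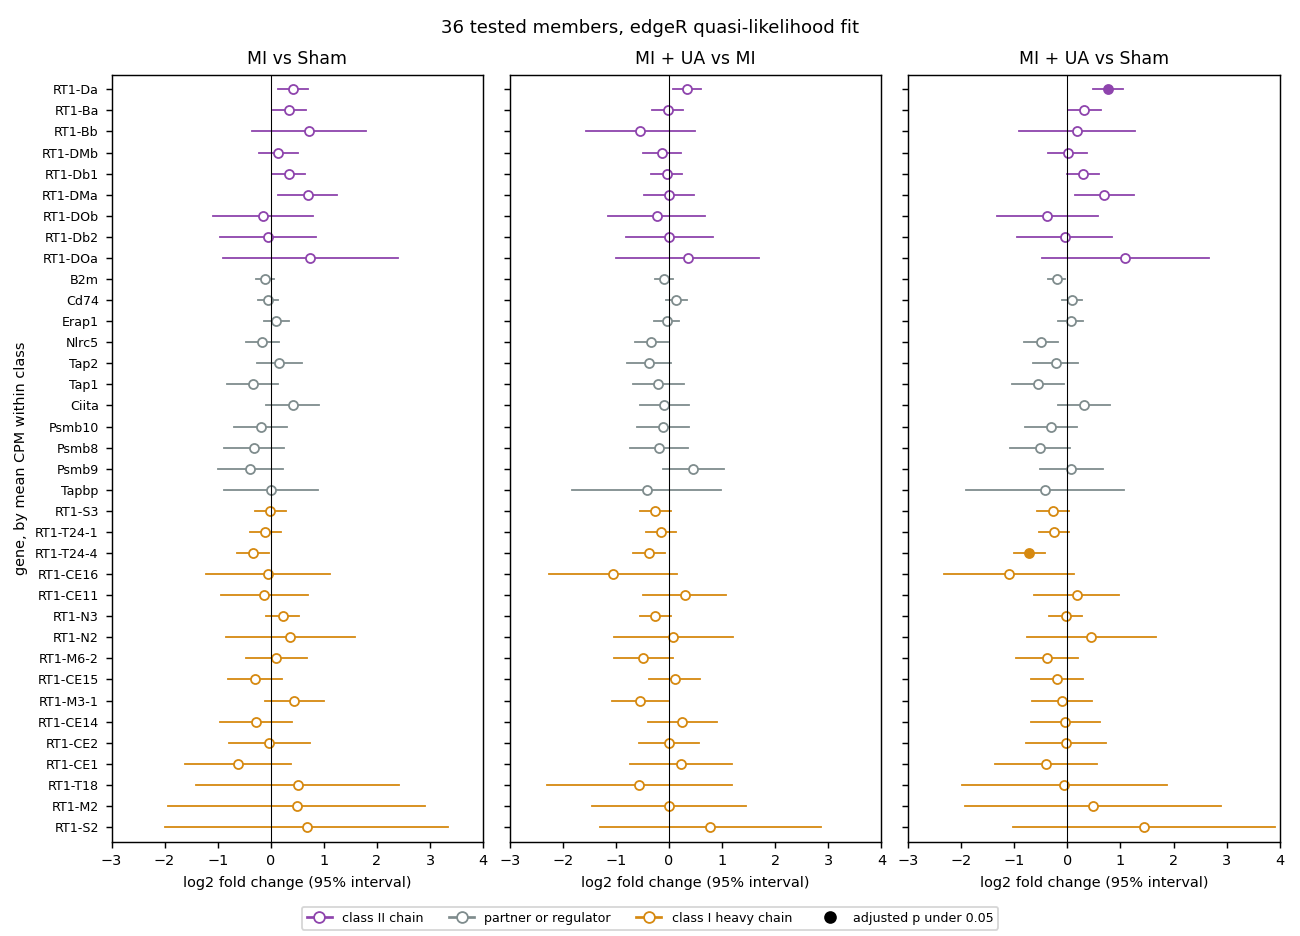
Log2 fold change (x axis) with its 95% interval for the 36 tested members (rows, grouped by class and ordered by mean CPM) in the 3 comparisons. Filled points have an adjusted p under 0.05, which holds for RT1-Da and RT1-T24-4 in MI + UA vs Sham, in opposite directions.

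Class II genes are described first. RT1-Da encodes the alpha chain of the rat counterpart of HLA-DR. Its level was 22.6, 23.5, 19.9 and 26.3 CPM in Sham rats 12, 17, 32 and 38. In MI rats 36, 57, 61 and 89 it was 29.2, 27.9, 34.7 and 32.1 CPM, and in MI + UA rats 29, 58, 64 and 66 it was 38.4, 30.9, 54.5 and 34.2 CPM. Every infarcted heart, treated or not, lay above every Sham heart, and rat 64 was the highest of all 12. The log2 fold change was 0.42 (SE 0.14, adjusted p = 0.0664) in MI vs Sham and 0.34 (SE 0.14, adjusted p = 1.00) in MI + UA vs MI, where it was 0.16 without rat 64. RT1-Da rose in MI + UA vs Sham by 0.76 on the log2 scale (SE 0.14, adjusted p = 0.00166), and without rat 64 the change was 0.58 (adjusted p = 0.00436). The MI vs Sham difference passed the threshold in 3 of the alternatives tried, among them the one in which rat 66 was counted in MI (log2 fold change 0.45, adjusted p = 0.0329).

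RT1-Db1, the beta chain that pairs with it, was 7.78 to 10.3 CPM in Sham, 9.28 to 13.0 in MI and 8.72 to 12.6 in MI + UA rats, and the 3 ranges overlapped. Its log2 fold change in MI vs Sham was 0.34 (SE 0.16, adjusted p = 0.191), and a difference from RT1-Da was not tested. A second beta chain gene, RT1-Db2, had only 77 counts over the 12 rats, between 3 and 12 in each.

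RT1-Ba and RT1-Bb encode the alpha and beta chains of the counterpart of HLA-DQ. RT1-Ba was 25.7, 23.1, 20.4 and 25.5 CPM in Sham rats 12, 17, 32 and 38, and 23.9, 24.9, 34.0 and 37.9 CPM in MI rats 36, 57, 61 and 89. In MI + UA rats 29, 58, 64 and 66 it was 33.9, 29.9, 34.4 and 21.4 CPM. Rats 36 and 57 of MI and rat 66 of MI + UA lay within the Sham range and the other 5 infarcted hearts lay above it. The log2 fold change was 0.35 (SE 0.16, adjusted p = 0.177) in MI vs Sham, and 0.22 without rat 89. It was 0.32 (SE 0.16, adjusted p = 0.241) in MI + UA vs Sham, and without rat 66 it was 0.46 (adjusted p = 0.0444).

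RT1-DMa and RT1-DMb form the DM pair, the peptide exchange catalyst. RT1-DMa was 2.51, 2.598, 3.87 and 2.98 CPM in Sham rats 12, 17, 32 and 38, and 5.26, 5.02, 4.46 and 4.48 CPM in MI rats 36, 57, 61 and 89. The MI + UA rats 29, 58, 64 and 66 had 5.08, 4.11, 8.12 and 2.59 CPM. All 4 hearts labelled MI lay above all Sham hearts, which no longer holds with rat 66 in MI, while the MI + UA hearts spread over the Sham range (rat 66) and past the MI range (rat 64). The log2 fold change was 0.70 (SE 0.29, adjusted p = 0.133) in MI vs Sham and 0.70 (SE 0.28, adjusted p = 0.144) in MI + UA vs Sham. The latter rested on single rats: without rat 66 it was 0.94 (adjusted p = 0.0175), and without rat 64 it was 0.40 (adjusted p = 0.426). With rat 66 in MI it was 0.94 (adjusted p = 0.0361), and in MI vs Sham it was then 0.53 (adjusted p = 0.219). RT1-DMb, its partner, had a log2 fold change of 0.14 in MI vs Sham (SE 0.19, adjusted p = 0.726), and its ranges of 7.41 to 12.3 CPM in Sham and 8.19 to 13.3 CPM in MI overlapped. RT1-DOa and RT1-DOb, the DO pair that restrains DM, had 45 and 100 counts in all. A small difference was not detectable at this depth, and neither gene was called.

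For the invariant chain the MI and Sham values lay close together. Cd74 was 175, 177, 191 and 198 CPM in Sham rats 12, 17, 32 and 38, and 179, 173, 181 and 182 CPM in MI rats 36, 57, 61 and 89. In MI + UA rats 29, 58, 64 and 66 it was 213, 159, 234 and 182 CPM. The MI values lay inside the Sham range or just under it, and the MI + UA values reached past it on both sides. The log2 fold change in MI vs Sham was -0.05 with a 95% interval of -0.24 to 0.14, so a difference within those bounds could not be seen. The interval of RT1-Da in the same comparison was 0.14 to 0.70, and the difference between the genes was not tested. For Cd74 in MI + UA vs MI the log2 fold change was 0.14, with an interval of -0.05 to 0.33. The ratio of RT1-Da to Cd74 counts within a rat, formed after the values of both genes had been seen, was 0.104 to 0.133 in Sham, 0.161 to 0.192 in MI and 0.180 to 0.233 in MI + UA rats. Infarcted and Sham hearts did not overlap in this ratio, and MI and MI + UA hearts did. Ciita, the class II coactivator, had 2.31 to 5.52 CPM in Sham, 4.75 to 7.21 in MI and 3.34 to 7.04 in MI + UA rats, with a log2 fold change in MI vs Sham of 0.41 (SE 0.25, adjusted p = 0.351).

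**Figure D2:**
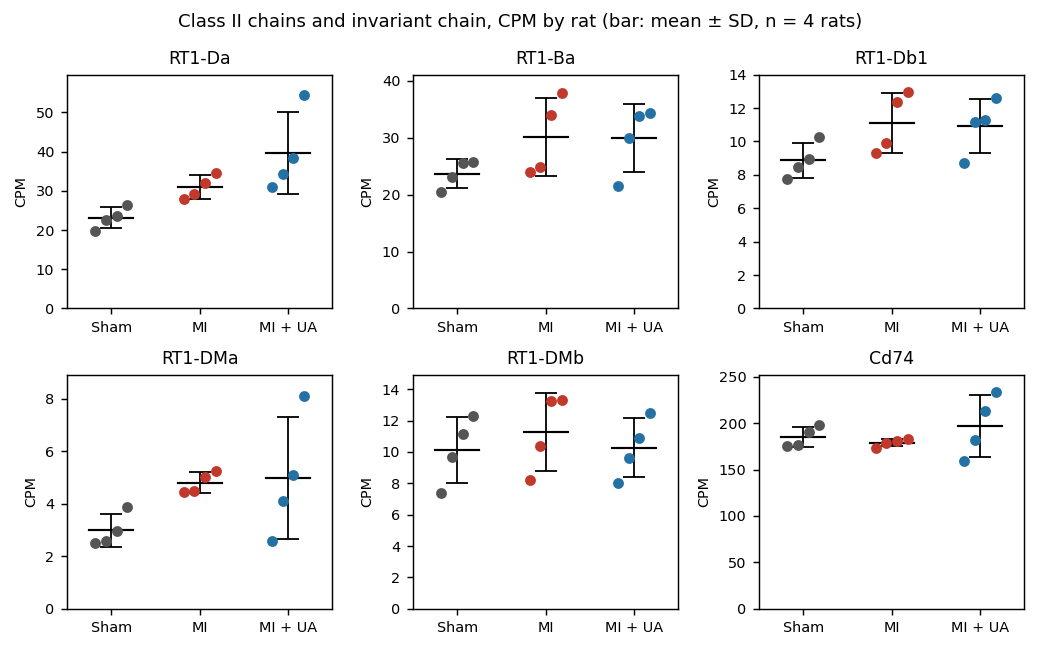
Level in CPM (y axis, from 0) of 5 class II chains and of Cd74 in each rat, with points for rats and bars for the mean ± SD of 4 rats. RT1-Da is higher in all 8 infarcted hearts than in any Sham heart, RT1-DMa in all 4 MI hearts, and Cd74 overlaps between the 3 groups.

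UA treatment gave no called difference among these genes. In MI + UA vs MI, 0 of the 36 members were called, and so was 0% of the 18182 genes tested (0 genes by DESeq2 as well). At an unadjusted p under 0.05 stood 3 members, or 8.33%, against 3.79% of all genes: RT1-Da was higher with UA, while RT1-T24-4 and Nlrc5 were lower. No member had ranges that did not overlap, against 2.34% of all genes. The median log2 fold change was -0.03 over class II, -0.08 over class I and -0.11 over partners and regulators, beside 0.00 over all genes. Values were below 0 in 25 of the 36 members (69.4%), against 49% of all genes, and with rat 66 in MI in 19 of 36, against 50.5%. With rat 66 in MI 0 members were again called, the class II median was 0.13, of the other sign, and Nlrc5 had separated ranges, against 2.9% of all genes.

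Against Sham, the MI + UA hearts had 2 called members, 1 in each direction, against 9.44% of all genes. RT1-Da, described above, rose, and RT1-T24-4 fell. At an unadjusted p under 0.05 stood 6 members (RT1-Da, RT1-DMa, RT1-T24-4, Nlrc5, Tap1 and B2m), against 21.8% of all genes, and 3 members (RT1-Da, RT1-T24-4 and Nlrc5) had ranges that did not overlap, against 14.3%. The members, at 5.56%, 16.7% and 8.33%, were thus below the share of all genes in each of these 3 counts. With rat 66 in MI, 3 members were called (RT1-DMa added), against 10.1% of all genes, and 7 had separated ranges (RT1-Ba, RT1-Db1, RT1-DMa and RT1-CE15 added), against 20%. MI + UA vs Sham shares its libraries with the other comparisons, so its calls are not a further replicate of theirs.

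Among class I heavy chains, RT1-T24-4, a non-classical gene of the T region, was the one called. Its level was 26.3, 17.3, 16.8 and 21.5 CPM in Sham rats 12, 17, 32 and 38. In MI rats 36, 57, 61 and 89 it was 15.4, 13.8, 17.4 and 18.3 CPM, and in MI + UA rats 29, 58, 64 and 66 it was 14.3, 14.5, 10.7 and 10.6 CPM. The MI range overlapped with both others, and the Sham and MI + UA ranges did not overlap. RT1-T24-4 fell in MI + UA vs Sham by 0.72 on the log2 scale (SE 0.15, adjusted p = 0.00414), and without Sham rat 12 it fell by 0.57 (adjusted p = 0.0226). In MI vs Sham the value was -0.33 (SE 0.15, adjusted p = 0.174), or -0.19 without Sham rat 12, and in MI + UA vs MI -0.38 (SE 0.15, adjusted p = 1.00). Its neighbour in name, RT1-T24-1, was 16.0 to 20.2 CPM in Sham, 11.98 to 21.8 in MI and 14.6 to 17.6 in MI + UA rats, with a log2 fold change of -0.25 in MI + UA vs Sham (SE 0.15, adjusted p = 0.346). Class I genes are close paralogs, and reads that mapped to more than 1 place (2.05% to 2.53% of reads counted) were not assigned, so how reads fell between near-identical class I genes is uncertain.

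RT1-S3 had 25.6 to 39.4 CPM in Sham, 24.8 to 34.7 in MI and 19.7 to 30.3 in MI + UA rats, with a log2 fold change of -0.01 in MI vs Sham (SE 0.15, adjusted p = 0.987). The other tested class I genes (RT1-N3, RT1-M6-2, RT1-M3-1, RT1-CE15, RT1-CE14, RT1-CE2, RT1-CE1, RT1-M2, RT1-T18 and the tested RT1-S2 gene) had mean levels under 10 CPM, none was called in any comparison, and their log2 fold changes in MI vs Sham ranged from -0.62 to 0.67.

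Summed over the 21 class I genes, the level was 123 ± 19.5 CPM in Sham, 118 ± 13.1 in MI and 100.3 ± 7.38 in MI + UA rats (SD, n = 4). Over the 9 class II genes it was 81.3 ± 7.11, 108.1 ± 24.8 and 109.6 ± 21.6 CPM. The ratio of class II to class I summed counts was 0.557, 0.669, 0.693 and 0.767 in Sham rats 12, 17, 32 and 38, and 0.620, 0.929, 0.962 and 1.21 in MI rats 36, 57, 61 and 89. In MI + UA rats 29, 58, 64 and 66 it was 1.197, 1.04, 1.21 and 0.890. In this ratio all 4 MI + UA hearts lay above all Sham hearts, and 1 MI heart, rat 36, lay within the Sham range. The class I sum also separated these groups, narrowly, at 105.9 to 150.8 CPM in Sham and 89.3 to 105.3 in MI + UA rats. The class II sum did not, at 73.4 to 89.8 CPM in Sham and 79.5 to 126.1 in MI + UA rats. Rat 66, at 79.5 CPM, lay within that Sham range, and the other MI + UA hearts lay above it. Without RT1-Bb, RT1-CE16, RT1-CE11 and RT1-N2, which were counted unevenly between rats as described next, the group means were 0.758 ± 0.0702, 1.02 ± 0.172 and 1.28 ± 0.207 (SD, n = 4). The sums are not corrected for gene length, so the ratio compares rats and does not say which class was more abundant.

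**Figure D3:**
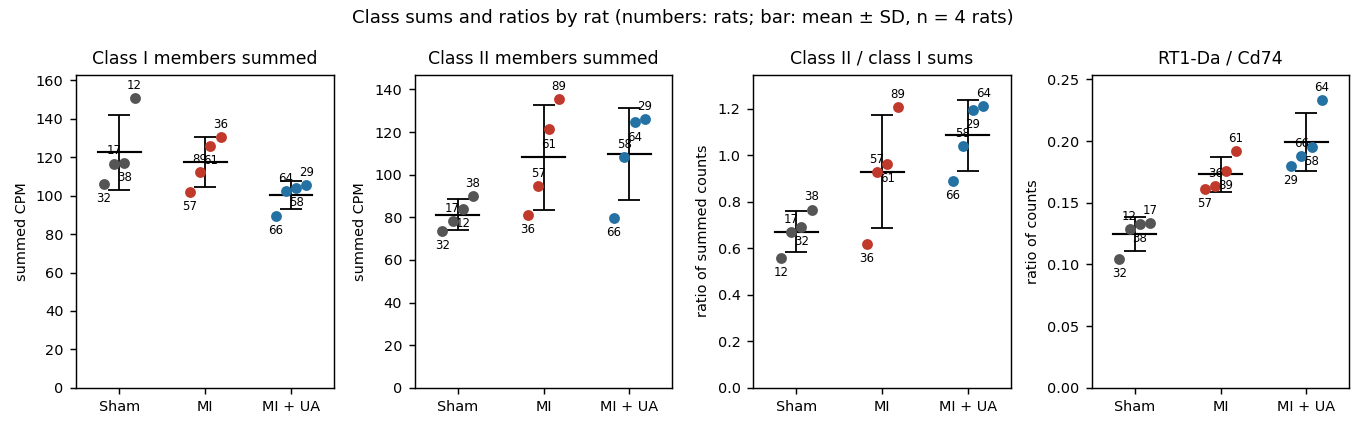
Summed CPM of class I and of class II members, the ratio of their summed counts, and the ratio of RT1-Da to Cd74 counts (y axes, from 0), with 1 numbered point per rat and bars for the mean ± SD of 4 rats. The class II to class I ratio is 0.557 to 0.767 in Sham and 0.890 to 1.21 in MI + UA rats, with MI rats spread over both ranges.

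Some RT1 genes varied more between rats of the same group than between groups. RT1-Bb was 11.2, 9.09, 9.76 and 13.1 CPM in Sham rats 12, 17, 32 and 38, and 2.92, 15.1, 20.5 and 33.2 CPM in MI rats 36, 57, 61 and 89. In MI + UA rats 29, 58, 64 and 66 it was 22.5, 19.8, 3.65 and 3.04 CPM. Rats 36, 64 and 66 thus stood apart from the other 9, and they did so for RT1-Bb and not for RT1-Ba, the gene of its partner chain. The ratio of RT1-Bb to RT1-Ba counts was 0.122, 0.106 and 0.142 in these 3 rats and 0.394 to 0.877 in the other 9.

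RT1-CE16, a class I gene, was low in the same 3 animals. Its level was 20.2, 11.5, 12.1 and 13.9 CPM in Sham rats 12, 17, 32 and 38, and 0.950, 11.4, 19.5 and 24.6 CPM in MI rats 36, 57, 61 and 89. In MI + UA rats 29, 58, 64 and 66 it was 11.9, 13.0, 1.22 and 1.18 CPM. Over 13279 genes with a mean of at least 1 CPM, 34 were lower in each of these 3 rats than in every one of the other 9. Of these, 4 were more than 2-fold lower: RT1-CE16, RT1-Bb and 2 genes without a symbol (ENSRNOG00000062487 and ENSRNOG00000069209). The 3 rats were picked by their RT1-Bb values after these had been seen, so RT1-Bb is among the 4 by that choice. The fold changes of RT1-Bb (0.72, SE 0.55, in MI vs Sham) and of RT1-CE16 (-1.10, SE 0.63, in MI + UA vs Sham) were not called. By the labels MI held 1 of the 3 rats, MI + UA held 2 and Sham held 0, and with rat 66 in MI these counts were 2, 1 and 0.

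A different rat stood apart in RT1-CE11 and in RT1-N2, a class I gene named here after its values were seen. RT1-N2 had 0 counts in MI rat 89, which allows up to 0.244 CPM (3 counts, counting error only), against 2.03 to 11.2 CPM in the other 11. RT1-CE11 was 1.63 CPM in rat 89 and 6.55 to 18.9 CPM in the other 11, with rats 36, 66, 64 and 12 the highest at 18.9, 16.9, 16.6 and 16.3 CPM. These 4 rats were also the highest for RT1-N2, at 11.2, 5.63, 7.71 and 6.52 CPM. By within-group SD of log2 CPM over the 11728 genes with a mean of at least 2 CPM, RT1-N2 ranked 10th from the top, RT1-CE16 13th, RT1-Bb 20th and RT1-CE11 40th. Their SDs were 1.79, 1.64, 1.24 and 0.97, beside a median of 0.20 over all these genes. B2m and Cd74 were among the steadier genes, at 0.12 and 0.15. The reads were mapped to a genome of another strain, BN, and the part of sequence differences between rats in these counts was not tested.

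**Figure D4:**
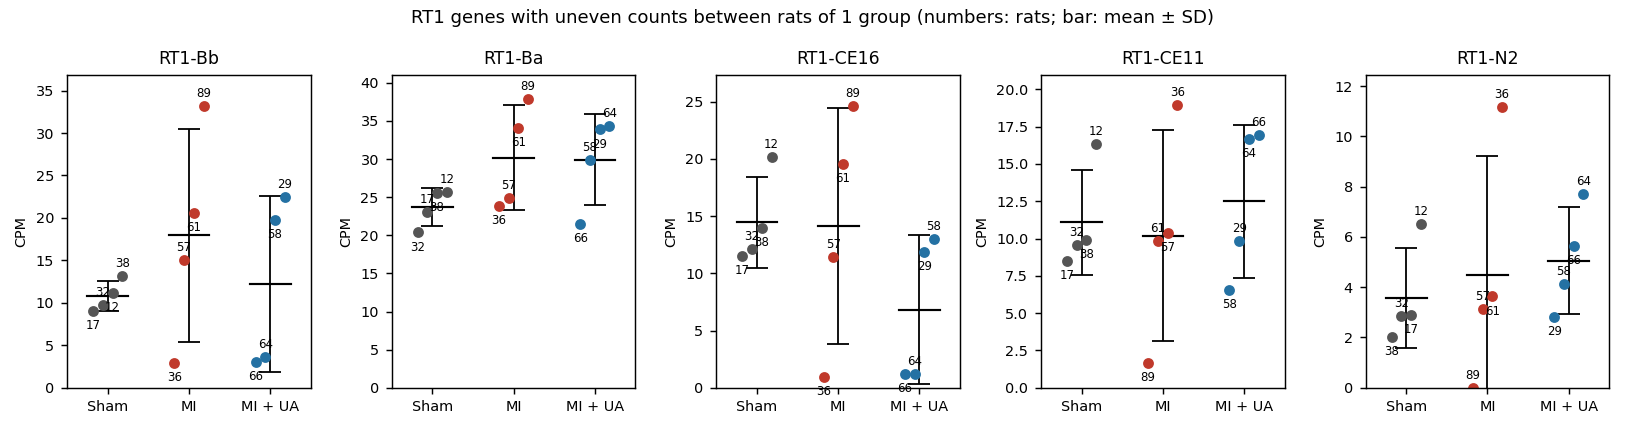
Level in CPM (y axis, from 0) of RT1-Bb, its partner chain RT1-Ba, RT1-CE16, RT1-CE11 and RT1-N2, with 1 numbered point per rat and bars for the mean ± SD of 4 rats. Rats 36, 64 and 66 are low for RT1-Bb and RT1-CE16 but not for RT1-Ba, and rat 89 is low for RT1-CE11 and RT1-N2.

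Of the 11 partners and regulators among the members, 0 were called in the main edgeR fit in any comparison. All genes were called at 11.4%, 0% and 9.44% in MI vs Sham, MI + UA vs MI and MI + UA vs Sham. Some alternatives, DESeq2 and edgeR fits among them, called Nlrc5 in MI + UA vs Sham. At an unadjusted p under 0.05 stood 0, 1 and 3 of the 11 in these comparisons, or 0%, 9.09% and 27.3%. The shares of all genes were 23.9%, 3.79% and 21.8%. B2m, the shared light chain, was 709, 590, 706 and 724 CPM in Sham rats 12, 17, 32 and 38, and 575, 627, 699 and 640 CPM in MI rats 36, 57, 61 and 89. In MI + UA rats 29, 58, 64 and 66 it was 587, 651, 566 and 567 CPM, and the 3 groups overlapped. The log2 fold change was -0.10 in MI vs Sham (SE 0.09, adjusted p = 0.518) and -0.20 in MI + UA vs Sham (SE 0.09, adjusted p = 0.158).

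Nlrc5, the class I coactivator, was 22.5, 14.0, 15.1 and 13.6 CPM in Sham rats 12, 17, 32 and 38. In MI rats 36, 57, 61 and 89 it was 17.9, 12.9, 15.3 and 11.98 CPM, and in MI + UA rats 29, 58, 64 and 66 it was 10.97, 11.9, 10.8 and 12.4 CPM. All MI + UA hearts lay below all Sham hearts. The difference was -0.50 on the log2 scale (SE 0.16, adjusted p = 0.0544), and with DESeq2 it was -0.51 (adjusted p = 0.0399). Without Sham rat 12, the highest of all, it was -0.30 (adjusted p = 0.250). Tap1, a subunit of the peptide transporter, was 5.89 to 7.99 CPM in Sham, 2.51 to 7.47 in MI and 3.11 to 6.04 in MI + UA rats, with a log2 fold change of -0.55 in MI + UA vs Sham (SE 0.25, adjusted p = 0.195). Its partner subunit Tap2 had a log2 fold change of 0.16 in MI vs Sham (SE 0.22, adjusted p = 0.729). Erap1, the trimming peptidase, had one of 0.10 (SE 0.12, adjusted p = 0.668). Tapbp had 42 counts in all, between 0 and 10 per rat, which is too few for a small difference to be seen.

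Psmb8, Psmb9 and Psmb10 are the catalytic subunits that replace Psmb5, Psmb6 and Psmb7 in the immunoproteasome. Their log2 fold changes in MI vs Sham were -0.32, -0.38 and -0.19, with adjusted p = 0.562, 0.507 and 0.717, and their levels were between 1.25 and 4.52 CPM in every rat. The ratio of the 3 immunoproteasome subunits to the 3 constitutive ones, in summed counts, was 0.111 ± 0.0375 in Sham, 0.113 ± 0.0319 in MI and 0.113 ± 0.0204 in MI + UA rats (SD, n = 4), on 39 to 134 counts of the former per rat. Within a rat it ranged from 0.0840 to 0.165 in Sham and from 0.0899 to 0.161 over the infarcted hearts, so the spread between rats exceeded the differences between the means.

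Of the other genes of the pathway a few were called in MI vs Sham, and the counts of each list below stand beside the 11.4% of all genes called in that comparison. Of 12 class II processing genes tested, 2 rose and 0 fell. These were Ctss, the cathepsin that trims the invariant chain, with a log2 fold change of 1.10 (SE 0.20, adjusted p = 0.000893), and Ctsb, at 0.43 (SE 0.13, adjusted p = 0.0389). Of 7 class I loading and trimming partners, 2 rose and 0 fell, the chaperone Calr by 0.35 (SE 0.11, adjusted p = 0.0340) and the oxidoreductase Pdia3 by 0.37 (SE 0.10, adjusted p = 0.0151). Of 7 proteasome regulators and constitutive subunits 0 rose and 2 fell, the PA28 subunit Psme1 by 0.47 on the log2 scale (SE 0.11, adjusted p = 0.00838) and Psmb7 by 0.39 (SE 0.10, adjusted p = 0.0174). Psmb5 and Psmb6 had values of -0.25 and -0.34 (adjusted p = 0.445 and 0.0624).

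Of 18 MHC transcription regulators tested, 2 rose and 1 fell in MI vs Sham, again beside 11.4% of all genes. Jak2, a kinase of the interferon gamma receptor, rose by 0.56 (SE 0.13, adjusted p = 0.00822), and Ifngr1, a chain of that receptor, by 0.50 (SE 0.11, adjusted p = 0.00508). Nfyc, a subunit of the factor that binds the Y box, fell by 0.33 on the log2 scale (SE 0.09, adjusted p = 0.0173). Of 6 class I-like molecules 0 rose and 1 fell, the lipid-presenting Cd1d1, by 0.53 (SE 0.12, adjusted p = 0.00515). Of 7 costimulatory molecules 1 rose, the adhesion molecule Icam1, by 1.03 (SE 0.18, adjusted p = 0.000561). Of 13 interferon-stimulated genes, 0 were called in any of the 3 comparisons, and their median log2 fold change was -0.06 in MI vs Sham and -0.37 in MI + UA vs MI.

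No gene of these lists was called in MI + UA vs MI. In MI + UA vs Sham, where 9.44% of all genes were called, the calls were 3 of 12 processing genes, 1 of 7 loading partners, 1 of 7 proteasome genes, 2 of 6 class I-like molecules, 1 of 18 regulators and 1 of 7 costimulatory molecules. They were Ctss, Ctsb, Pdia3, Psme1, Cd1d1 and Icam1 in the same direction as in MI vs Sham, and 3 others. These were Marchf1, a ligase that removes class II from the surface (1.45, SE 0.44, adjusted p = 0.0433), Mr1, which presents vitamin metabolites (2.28, SE 0.58, adjusted p = 0.0146), and the myeloid factor Irf8 (0.53, SE 0.14, adjusted p = 0.0209). They were named because the counts were small, after their values had been seen, and a difference from the MI vs Sham values was not tested for any of them.

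Among cells that can carry class II, macrophage markers rose with infarction, and their part in the class II values was not tested. Of 14 macrophage markers, 10 rose and 0 fell in MI vs Sham, where 11.4% of all genes were called, and the median log2 fold change was 0.92. The summed level of the list was 172 to 221 CPM in Sham, 333 to 531 in MI and 287 to 555 in MI + UA rats. The largest were Mrc1 (1.54, SE 0.17, adjusted p = 5.45e-06), Cd14 (1.40, SE 0.30, adjusted p = 0.00418) and Lyz2 (1.34, SE 0.26, adjusted p = 0.00174). In MI + UA vs Sham 10 rose and 0 fell, beside 9.44% of all genes called, and in MI + UA vs MI 0 were called.

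Of 6 pan-leukocyte markers 2 rose, Cd53 (0.82, SE 0.24, adjusted p = 0.0259) and Ptprc (0.52, SE 0.11, adjusted p = 0.00314), and the summed level was 66.2 to 74.6 CPM in Sham, 82.3 to 117 in MI and 81.2 to 137 in MI + UA rats. Of 9 dendritic cell markers 1 rose, Flt3 (1.44, SE 0.40, adjusted p = 0.0228), a count near the 11.4% of all genes, with summed levels of 32.3 to 38.6, 36.9 to 44.6 and 33.2 to 44.5 CPM. No T cell (11 tested), NK cell (5 tested) or B and plasma cell marker (8 tested) was called in MI vs Sham. Summed B and plasma cell markers stayed at 1.79 to 3.89 CPM in Sham, 1.955 to 4.02 in MI and 1.74 to 3.92 in MI + UA rats. Summed T cell markers were at 13.1 to 17.8, 14.2 to 24.6 and 13.4 to 19.8 CPM, and NK cell markers at 10.54 to 14.1, 8.47 to 15.8 and 10.3 to 13.4 CPM. Of the T cell markers 1 of 11 was called in MI + UA vs Sham, the kinase Lck (0.82, SE 0.26, adjusted p = 0.0486), beside 9.44% of all genes, and the median of the list was -0.08. Lck is named here after its value was seen.

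Fibroblast and cardiomyocyte markers changed as well. Of 8 fibroblast markers 7 rose in MI vs Sham, led by Postn at 2.65 and Fn1 at 2.09, and their summed level was 1186 to 1489 CPM in Sham, 2313 to 4013 in MI and 2379 to 4122 in MI + UA rats. Of 9 cardiomyocyte markers 8 fell, led by Myh6 at -1.08. Of 8 endothelial markers 1 fell, Kdr, at -0.50 (SE 0.10, adjusted p = 0.00342), again a count near the share of all genes, and the median of that list was -0.09. CPM values are shares of a library, and the part of the fibroblast and cardiomyocyte shifts in the values of the MHC genes was not tested.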

How the data were processed

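RNA was sequenced from heart sections of 12 rats, 4 each in Sham, MI and MI + UA, grouped by their labels. Per the labels, libraries were strand-specific, rRNA-depleted (a label field also calls the molecule polyA RNA) and paired-end. The authors deposited raw read counts per gene, made with STAR 2.6.1c on mRatBN7.2 with an Ensembl annotation and htseq-count (tools from the submitters' processing notes, with MultiQC 1.8). The strand setting of the counting was not given in the sources used here. The 5 htseq summary lines were left out, and 7162 genes had no symbol. Genes with at least 10 counts in all were tested with edgeR 4.0.16 (R 4.3.3; TMM, quasi-likelihood test, 3 groups in 1 fit, Benjamini-Hochberg, 0.05), checked on simulated data first. A log2 fold change has its SE from the fit, and its 95% interval is 1.96 SE either way, which includes the spread between rats. CPM uses TMM-scaled library sizes, and the limit for 0 counts covers counting error only. Alternatives were DESeq2 1.42.0, its size factors, other filters, TMM without mitochondrially encoded genes, only the groups compared, rat 66 in MI and leaving out each rat. Promoters were searched with Python 3.11.15 and plots drawn with matplotlib 3.10.9.

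The members, gene lists and rules were chosen with earlier results of these data known. Named were the 11 partners and regulators, the class II genes tested, class I genes with a mean of at least 10 CPM or a call, and from each list up to 3 genes called in MI vs Sham with the largest change in each direction, plus Psmb5, Psmb6 and Psmb7. The 16 lists were class I loading and trimming partners, proteasome subunits, class II processing genes, class I-like molecules, MHC regulators, costimulatory molecules, interferon-stimulated genes, and markers of T, NK, B and plasma, dendritic and endothelial cells, macrophages, leukocytes, fibroblasts and cardiomyocytes.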

Additional observations from a re-analysis of the deposited data

Results flagged for a closer look

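In 102 groups of 4 rats (34 measures of these genes and their ratios in 3 groups), the gap between the highest or lowest rat and its nearest neighbour was compared with the range of the group, and 6 groups had a gap over the critical share of Dixon's test at the 95% level. Chance gives about 1 in 20, so 6 of 102 is near what chance alone gives. B2m was lowest in Sham rat 17, at 590 CPM against 706 to 724 CPM in the other 3. Psmb10 was highest in MI + UA rat 64, at 4.19 CPM against 2.25 to 2.57 CPM. RT1-CE2 was lowest in MI rat 57, at 0.470 CPM, which is 3 counts, against 1.25 to 1.39 CPM. RT1-CE15 was highest in Sham rat 12, at 3.76 CPM against 3.17 to 3.22 CPM. RT1-CE14 was lowest in MI + UA rat 29, at 0.971 CPM against 2.44 to 2.57 CPM. The ratio of immunoproteasome to constitutive subunits was highest in MI rat 36, at 0.161 against 0.0933 to 0.103.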

How the results depend on the processing

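The calls of RT1-Da and RT1-T24-4 in MI + UA vs Sham held in all alternatives tried, leaving out each rat included. In MI vs Sham the count of members called went from 0 to 1 without a filter on low counts and to 1 with rat 66 in MI. It went to 2 with only the 2 groups compared (RT1-Da and RT1-DMa). It also went to 2 for the mean of MI and MI + UA against Sham, which was chosen after seeing the data (RT1-Da and RT1-T24-4). It stayed at 0 in each fit without 1 rat. With rat 66 in MI the share of members called was smaller than the share of all genes called in the same fit. For the fits without a filter, with only the 2 groups and for the mean, the share of all genes is not given here. Those counts therefore stand without a background. In MI + UA vs MI the count of members called was 0 throughout, while the count of all genes called was 3 without a filter and 0 to 1 when leaving out 1 rat (1 without MI rat 36). In MI + UA vs Sham the members called were 2 to 4 when leaving out 1 rat, with 4 without rat 66 (RT1-Ba and RT1-DMa added). Nlrc5 passed the threshold there in 6 alternatives. Counts of all genes called ranged from 1467 to 1941 in MI vs Sham and from 1152 to 1895 in MI + UA vs Sham when leaving out 1 rat.

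Among member fold changes larger than their SE, 3 values changed sign. When leaving out 1 rat, Nlrc5 in MI vs Sham ranged from -0.29 (without MI rat 36) to 0.038 (without Sham rat 12) and RT1-T24-1 in MI + UA vs MI from -0.30 (without rat 89) to 0.0050 (without rat 36). With rat 66 in MI, RT1-Bb in MI + UA vs MI was 0.12. For these 48 fold changes, 702 of 718 values under the alternatives kept direction and call. Of the 60 smaller than their SE, 48 changed sign somewhere and 0 were called. The class medians moved by less than the spread between rats, although the class I median of MI vs Sham ranged from -0.20 to 0.12 when leaving out 1 rat, so it has no stable sign. Without the DM and DO chains and class I genes under 1 CPM the class II to class I ratio was 0.557 in Sham and 0.930 in MI + UA rats, and without the 4 unevenly counted genes, chosen after seeing the data, it was 1.28 in MI + UA rats. The cause of these changes was not tested.

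No paired analysis was possible because the groups share no replicate numbers. Genes with at most 100 counts over all rats (the DO chains, RT1-Db2, Tapbp and the rare class I genes) are too shallow for a small difference to be detected.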
